A study of Mus musculus with 6 samples.

Results

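The reelin pathway was examined through 4 genes, the ligand gene Reln, the receptor genes Vldlr and Lrp8 and the adaptor gene Dab1. They were picked by name as the core of the pathway, with earlier results of these data known. All 4 had a row in the deposited table with a single gene symbol, of 14860 genes with such a row. Dab1 alone had a second row, and its brighter row by the mean over the 6 arrays was used. Row 6936589 stood for Reln, row 6868899 for Vldlr, row 6916143 for Lrp8 and row 6915993 for Dab1, with row 6915929 as the second row of Dab1. The arrays measured RNA of motor neurons, 3 medial and 3 lateral samples with 1 array each, from the lumbar cord of mice at embryonic day 12. The columns were separated by dissection, and the neurons were then isolated by fluorescence sorting. All samples carried the HB9::GFP transgene, line mHB9-Gfp1b, in which the promoter of the motor neuron gene Mnx1 drives green fluorescent protein. Each sample therefore holds cells in which that promoter was active, and the labels do not say how many embryos were pooled. The question was which transcripts distinguish the medial from the lateral neurons.

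Reelin is a large secreted glycoprotein that guides where migrating neurons settle. It binds the lipoprotein receptors VLDLR and ApoER2, the product of Lrp8, on the neuron's surface, and kinases of the Src family then phosphorylate the adaptor Dab1 on the inside. Phosphorylated Dab1 recruits Crk proteins and phosphoinositide 3-kinase and is then degraded through the Cul5 ubiquitin ligase. In mice without Reln or Dab1 the layers of the cortex are disordered, sympathetic preganglionic neurons of the spinal cord settle in the wrong place, and neurons of the lateral motor column, which supply the limb, are misplaced. Medial column neurons supply the muscles along the spine.

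Of the 4 genes, Vldlr was higher and Dab1 lower in the medial samples, by 1.54-fold and 1.59-fold. Reln was 1.46-fold higher and did not pass the threshold (adjusted p = 0.0631), and Lrp8 differed by 0.05 on the log2 scale. These calls are limma tests of the deposited log2 values over all rows of the table, with Benjamini-Hochberg adjustment and a threshold of 0.05. By the same test 3.07% of all rows were called, and 3.8% of the 14860 genes, with 1.53% of the genes higher in medial samples and 2.26% lower. In 3 of the 4 genes the groups did not overlap in their values, which was so for 22.2% of all genes. In samples of sorted cells, fewer cells that express a gene and less of its RNA in each cell cannot be told apart.

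The sorted cells carried the marker genes of motor neurons. The summed level of 11 such genes lay between 14.21 and 14.31 in the medial samples and between 14.60 and 14.71 in the lateral samples (log2). In limma 4 of these genes were higher and 4 lower in medial samples, or 72.7% called, against 3.8% of all genes. The 3 that did not pass, Chat, Slc5a7 and Slc18a3, differed by 0.29, −0.15 and 0.14 (log2). Column-specific factors and the enzyme gene Aldh1a2 are on this list. Aldh1a2 averaged 7.52 in medial and 12.39 in lateral samples, so the summed level also reflects differences between the columns. The lateral column factor Foxp1 averaged 9.18 in medial and 12.18 in lateral samples, and Lhx3, a factor of the medial column, averaged 10.42 in medial and 7.19 in lateral samples. Mnx1, whose promoter the sort relied on, was itself 2.67-fold higher in the medial samples (limma adjusted p = 0.00102). The table has no detection calls. As a guide to background, 718 olfactory receptor genes had a median level of 4.07 (log2, mean over 6 samples). Their 95th percentile was 6.17 and their highest level 7.87, and every value of the 4 pathway genes was above the highest. Where olfactory receptor genes are said below to reach a level, the highest level is meant. They also reached the lateral level of Lhx3 and the medial level of Aldh1a2. Array medians ranged from 6.73 to 6.84.

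Sequences before start sites of Reln, Dab1 and Vldlr are given here, for Vldlr before the first of its 2 listed starts, because these are the genes whose medial and lateral values stood apart. They are the 250 bases ahead of RefSeq starts (GRCm38.p6, written in the direction of the gene), and all 4 genes had an entry. The motifs searched, on both strands, were TAATTA, a core bound by many homeodomain proteins, and TGTTTAC, a core bound by forkhead proteins, since the column factors belong to these families. Capitals mark a match, and a sequence all in lower case holds neither.
Reln, chr5:22344706-22344955, minus strand: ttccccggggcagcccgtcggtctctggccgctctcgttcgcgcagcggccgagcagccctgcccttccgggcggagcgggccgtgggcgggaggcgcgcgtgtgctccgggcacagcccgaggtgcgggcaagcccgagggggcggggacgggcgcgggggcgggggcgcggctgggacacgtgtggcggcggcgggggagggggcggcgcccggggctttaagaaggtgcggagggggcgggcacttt
Dab1, first start, chr4:103619250-103619499, plus strand: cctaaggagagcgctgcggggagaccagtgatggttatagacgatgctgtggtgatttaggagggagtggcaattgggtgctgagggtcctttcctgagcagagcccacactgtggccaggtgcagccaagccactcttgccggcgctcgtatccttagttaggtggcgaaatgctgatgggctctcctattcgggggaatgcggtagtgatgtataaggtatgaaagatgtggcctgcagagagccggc
Dab1, second start, chr4:104367288-104367537, plus strand: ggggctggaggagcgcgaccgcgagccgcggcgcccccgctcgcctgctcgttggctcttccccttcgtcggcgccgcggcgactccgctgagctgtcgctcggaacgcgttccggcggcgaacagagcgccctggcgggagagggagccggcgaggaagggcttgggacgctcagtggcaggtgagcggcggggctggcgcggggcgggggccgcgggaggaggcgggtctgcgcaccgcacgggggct
Vldlr, first start, chr19:27216234-27216483, plus strand: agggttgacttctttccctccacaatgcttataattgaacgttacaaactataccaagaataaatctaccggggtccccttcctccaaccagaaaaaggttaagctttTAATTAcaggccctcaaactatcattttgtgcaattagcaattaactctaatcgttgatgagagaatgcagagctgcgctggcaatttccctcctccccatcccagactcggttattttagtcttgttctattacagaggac
TAATTA occurred once, 142 bases ahead of the first Vldlr start, and in 4.84% of the 32851 mouse promoters of this length. TGTTTAC occurred in none of the 8 windows listed for the 4 genes and in 3.17% of all promoters. The windows differed in composition. G and C made up 80% of the bases ahead of Reln and 78% ahead of the second Dab1 start, against a median of 52.4% over all promoters, and 56.4% and 41.6% ahead of the first Dab1 and first Vldlr starts. Ahead of the second Vldlr start, which is not printed and holds neither motif, they made up 66.4%. Which of the 2 starts of Dab1 or of Vldlr was used in these cells is not measured by the array values.

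Reln, the ligand, had values of 9.84, 9.63 and 9.88 in medial samples, against 9.38, 9.23 and 9.09 in lateral samples (log2, replicates 1, 2 and 3). Each medial sample was above each lateral sample, with a gap of 0.25 between the lowest medial and the highest lateral value. The means were 9.78 ± 0.13 in medial and 9.24 ± 0.14 in lateral samples (SD, n = 3 each). The difference was 0.55 ± 0.11 on the log2 scale (SE, 95% interval 0.28 to 0.81), and Reln did not pass over all rows in limma (adjusted p = 0.0631). It passed in 5 of 8 other settings that kept all samples, with adjusted p-values from 0.0166 to 0.538 over the 8, and in 0 of 6 limma fits with a sample left out (0.0722 to 0.228).

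Reelin in the spinal cord is also made by cells other than motor neurons, ventral interneurons among them, so the markers of such cells were set beside the ligand. Sorting for HB9::GFP would remove cells in which the Mnx1 promoter is not active. Of 20 interneuron genes 18 were measured, 1 of them passed as higher and 1 as lower, and their summed level ranged from 10.80 to 10.93 in medial and from 10.77 to 11.12 in lateral samples (log2). The gene that was higher was Slc17a6, the vesicular glutamate transporter, at 6.50 in medial and 5.48 in lateral samples. Foxp2, a factor of V1 interneurons, was lower, at 6.39 in medial and 7.34 in lateral samples. The remaining 16 did not pass. Of the 18 genes 11.1% were called, against 3.8% of all genes. Olfactory receptor genes also reached the levels of Slc17a6 and Foxp2 in both groups. The 18 genes had a median level of 6.37 and a highest of 8.23, so most lay at levels that olfactory receptor genes also reached. The ranges of the summed level overlapped between the groups, and what part such cells have in the Reln values was not tested.

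Among the proteases that cut secreted reelin, Adamts4, Adamts5 and Plat were measured and did not pass. Adamts5 differed by 0.19 ± 0.11, Plat, which encodes tissue plasminogen activator, by 0.13 ± 0.10, and Adamts4 by −0.08 ± 0.09 (log2, SE). Adamts5 and Adamts4 averaged 5.10 and 6.17 in medial and 4.90 and 6.25 in lateral samples, levels that olfactory receptor genes also reached.

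Vldlr, the very low density lipoprotein receptor, had values of 9.60, 9.77 and 9.69 in medial samples, against 9.18, 9.09 and 8.92 in lateral samples (log2). The groups stood apart, with a gap of 0.42 between the lowest medial and the highest lateral value. Means were 9.69 ± 0.08 in medial and 9.06 ± 0.13 in lateral samples (SD, n = 3 each), a difference of 0.62 ± 0.10 (SE, 95% interval 0.39 to 0.86, limma adjusted p = 0.0233). The size of the difference stayed between 0.55 and 0.68 with any one sample left out, but the call ended in 5 of these 6 fits. The adjusted p was 0.0671, 0.0955 and 0.103 without medial replicate 1, 2 or 3, and 0.0871 and 0.0558 without lateral replicate 2 or 3. It was 0.0414 without lateral replicate 1. Against a minimum fold of 1.2 the call ended too (limma's treat, adjusted p = 0.173), as it did with the replicate number as a block (limma adjusted p = 0.0790).

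Lrp8, the receptor ApoER2, had values of 10.65, 10.51 and 10.66 in medial samples, against 10.68, 10.53 and 10.46 in lateral samples (log2). The highest and the lowest of the 6 values were both lateral, so the medial values lay within the lateral range. Its difference was 0.05 ± 0.09 (SE, limma adjusted p = 0.884), with a 95% interval from −0.17 to 0.27. Quantile normalization of the arrays turned the sign, at −0.01. The change in Vldlr exceeded that in Lrp8 by 0.57 on the log2 scale, and the per-sample differences between both receptors did not overlap between the groups. An exact two-sided permutation test of that contrast gave p = 0.1, the smallest that 3 against 3 samples allow, and 0.12 after adjustment over the 6 pairs of the 4 genes. The corresponding excess of Reln over Lrp8 was 0.49, also at p = 0.1 in the exact test, and Reln and Vldlr differed in their change by −0.08 (exact permutation p = 0.9).

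Of 7 measured genes of the low density lipoprotein receptor family, which includes both reelin receptors, 1 was higher, 0 were lower and 6 did not pass in limma. The 1 called is 14.3% of the family, against 3.8% of all genes. Besides Vldlr, the smallest unadjusted p of the family belonged to Lrp4, the agrin receptor of the neuromuscular junction, at 6.04 in medial and 6.32 in lateral samples (adjusted p = 0.246). Olfactory receptor genes also reached these Lrp4 levels. Sorl1, a sorting receptor, differed by −0.20 ± 0.09 and the Wnt coreceptor gene Lrp6 by 0.09 ± 0.09 (log2, SE). The median difference was 0.04 in the family and 0.01 over all genes. Among genes for receptor folding, traffic and turnover, 4 of 6 were measured and 0 passed in limma, with 0 at an unadjusted p under 0.05. Their differences ran from −0.04 for Mylip, a ubiquitin ligase that degrades both reelin receptors and was named after its value was seen, to 0.14 for the protease gene Furin. Lrpap1, a chaperone of this receptor family, differed by 0.06 ± 0.09 and the sorting nexin gene Snx17 by 0.05 ± 0.08.

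**Figure D1:**
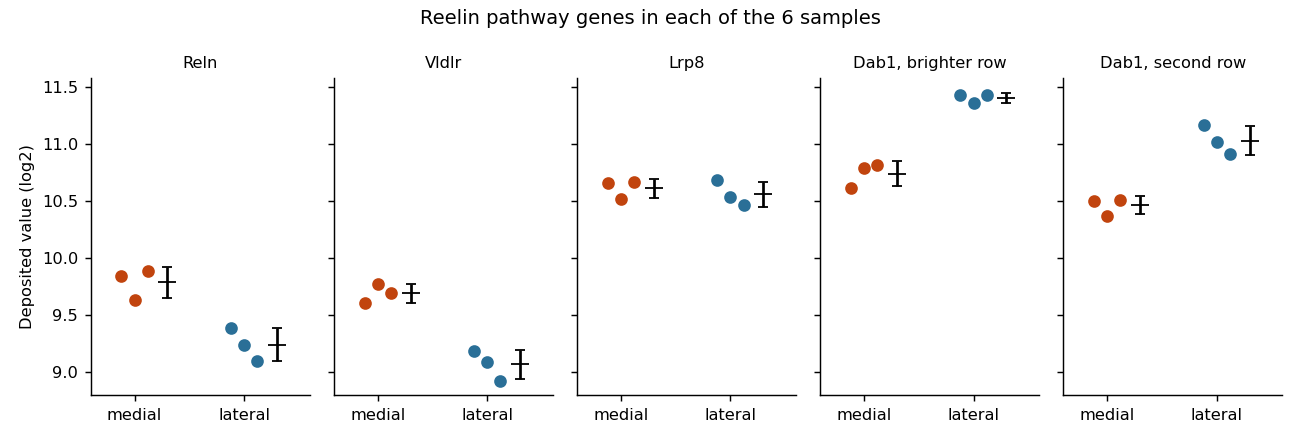
The deposited value of each gene (log2, vertical axis) is plotted for the 3 medial samples on the left and the 3 lateral samples on the right of each panel, with the mean and SD in black. Medial samples lie above lateral ones for Reln and Vldlr and below them in both rows of Dab1, and the groups overlap for Lrp8. Heights are not comparable between panels.

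Dab1, the adaptor, had values of 10.61, 10.79 and 10.81 in medial samples, against 11.43, 11.35 and 11.43 in lateral samples (log2). All 3 medial values were lower than all 3 lateral ones, and the gap of 0.54 between the groups was the widest of the 4 genes. The means were 10.74 ± 0.11 in medial and 11.40 ± 0.04 in lateral samples (SD, n = 3 each), so the gene fell by 0.67 on the log2 scale (SE 0.08, 95% interval −0.87 to −0.46, limma adjusted p = 0.0115). Leaving out any of the 6 samples kept the Dab1 call, with adjusted p-values from 0.0420 to 0.0472. Against a minimum fold of 1.2 the call ended (limma's treat, adjusted p = 0.0748). It also ended with the replicate number as a block (limma adjusted p = 0.0520), though these numbers could not be shown to pair the samples. The second Dab1 row gave 10.50, 10.37 and 10.51 in medial samples, against 11.16, 11.01 and 10.91 in lateral samples. It too was lower in every medial sample, with a log2 difference of −0.57 ± 0.10 (SE, limma adjusted p = 0.0314). The tables used here do not say which part of the gene each row measures. The change in Dab1, at −0.67, was opposite in direction to those in Vldlr, at 0.62, and Reln, at 0.55. With the signs kept, the changes differed by −1.29 and by 1.21 on the log2 scale (Dab1 minus Vldlr, and Reln minus Dab1). The exact permutation test gave p = 0.1 for both, the smallest possible, and 0.12 after adjustment over the 6 pairs. Groups that stand apart in opposite directions fix this p-value beforehand, so it adds nothing to the results of the single genes.

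Of 4 genes listed for sympathetic preganglionic neurons, a cell type that reelin also positions, 3 were measured. Nos1 and Zeb2 were lower in the medial samples, while Tfap2b, at 5.22 in medial and 5.57 in lateral samples, did not pass. The called share of the 3 was 66.7%, against 3.8% of all genes. Nos1, which encodes the neuronal nitric oxide synthase of these cells, averaged 6.31 in medial and 7.93 in lateral samples (limma adjusted p = 0.00133). Olfactory receptor genes also reached the medial level of Nos1 and the Tfap2b levels in both groups. Zeb2, a transcription factor that other neurons also use, averaged 9.30 in medial and 9.93 in lateral samples. The summed level of the 3 genes ranged from 9.47 to 9.69 in medial and from 10.23 to 10.35 in lateral samples (log2), and its part in the Dab1 and Reln values was not tested. Of the 10 progenitor and floor plate genes, Sox2 was higher and Shh lower in the medial samples and 8 did not pass, or 20% called against 3.8% of all genes. Sox2 was at 6.31 in medial and 5.68 in lateral samples, levels that olfactory receptor genes also reached. Summed levels were 9.85 to 9.92 in medial and 10.03 to 10.19 in lateral samples. Shh, which is also made by motor neurons, is the brightest of the 10 and weighs most in this sum, at 7.47 in medial and 8.50 in lateral samples. Its medial level was also reached by olfactory receptor genes. In the lists for sensory neurons, neural crest, endothelium, blood, macrophages, mesenchyme, muscle and stress, the endothelial gene Cldn5 alone passed, at 6.05 in medial and 5.60 in lateral samples. The summed level of the 5 endothelial genes ranged from 7.31 to 7.34 in medial and from 7.12 to 7.24 in lateral samples, without overlap. Cldn5 is the brightest of the 5 and weighs most in this sum. The 4 others went both ways, with Pecam1 at 4.96 in medial and 5.08 in lateral samples and Kdr at 4.40 and 4.31. Olfactory receptor genes also reached the levels of all 5. The summed level of 7 stress genes was 12.22 in medial replicate 1, 11.17 and 11.25 in the other medial samples and between 11.58 and 11.85 in the lateral samples. The part of these in the pathway values was not tested.

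Foxp1 and Lhx1, which have been described to gate reelin signalling in the lateral motor column of the mouse, were lower in the medial samples, with log2 differences of −3.00 ± 0.11 and −2.58 ± 0.20 (SE). Lhx1 marks the lateral division of that column and averaged 6.44 in medial and 9.02 in lateral samples. Olfactory receptor genes also reached the medial level, so the Lhx1 difference may be an understatement. Isl1 differed by −0.64 ± 0.07, against −0.67 ± 0.08 for Dab1.

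The kinases and partners of Dab1 showed no further call. Of 26 measured genes of this list, which includes Dab1, 0 were higher, 1 was lower and 25 did not pass in limma, with 3 at an unadjusted p under 0.05. The 1 call is 3.85% of the list, against 3.8% of all genes called. The 3 are 11.5% of the list, against 14.5% of all genes. Fyn, the main kinase for Dab1, averaged 11.47 in medial and 11.58 in lateral samples, a difference of −0.10 ± 0.09 (log2, SE). Rap1a, a small GTPase downstream of Crk proteins, had values of 10.90, 10.94 and 10.80 in medial samples, against 11.28, 11.08 and 11.43 in lateral samples. The groups stood apart, but the adjusted p was 0.173. Dab2, a paralog of Dab1, averaged 4.67 in medial and 4.87 in lateral samples, a level that olfactory receptor genes also reached, with an adjusted p of 0.263. Pik3r1, the regulatory subunit of phosphoinositide 3-kinase, differed by −0.20 ± 0.08 and Crkl by 0.18 ± 0.09, and Cul5, the scaffold of the ligase that removes Dab1, by 0.15 ± 0.09. The arrays report RNA, so neither the phosphorylation nor the amount of Dab1 protein is known. Fyn, Crkl and Cul5 are given for their place in the pathway, after their values were seen.

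Other ligands of these receptors and proposed coreceptors for reelin gave 0 calls of 9 in limma, although 6 of the 9 had an unadjusted p under 0.05. That is 66.7% of the list, against 14.5% of all genes, in a list chosen with earlier results of these data known. The ephrin gene Efnb1, a proposed coreceptor, averaged 7.99 in medial and 8.33 in lateral samples (adjusted p = 0.212), and clusterin (Clu), another ligand, 7.50 in medial and 7.79 in lateral samples (adjusted p = 0.238). Olfactory receptor genes also reached these Clu levels. The integrin genes differed in opposite directions without passing, Itgb1 by 0.29 ± 0.10 and Itga3, named after its value was seen, by −0.35 ± 0.13 (log2, SE). The median difference of the list was −0.13.

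Downstream kinases and cytoskeletal proteins gave 0 calls of 19 measured genes in limma, with 2 at an unadjusted p under 0.05. That is 10.5% of the list, against 14.5% of all genes. Nde1, whose protein binds the dynein regulator Lis1, had values of 6.03, 6.09 and 6.05 in medial samples, against 5.70, 5.72 and 5.75 in lateral samples. Those groups stood apart with little spread, and the difference of 0.34 ± 0.07 missed the threshold (adjusted p = 0.0615). Cfl1, which encodes the actin-severing protein cofilin, had 6.58, 6.75 and 6.64 in medial samples, against 5.58, 6.11 and 4.95 in lateral samples. The difference of 1.11 ± 0.27 missed the threshold (adjusted p = 0.119), and the lateral values spread over more than 1 log2 unit. Olfactory receptor genes also reached the levels of Nde1 and Cfl1 in both groups. Cdk5r2, an activator of the kinase Cdk5, differed by −0.21 ± 0.09. Microtubule and migration genes such as Dcx and Pafah1b1, which encodes Lis1, differed by −0.14 ± 0.07 and −0.01 ± 0.08, and were picked for their role after their values were seen.

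Over the 6 lists together, 69 of 79 genes were measured and 2 passed, Vldlr and Dab1. The 2 are 2.9% of the 69, against 3.8% of all genes called. Of the 65 that are not among the 4 pathway genes, 0 passed in limma and 11 had an unadjusted p under 0.05, or 16.9%, against 14.5% of all genes. Values of the groups did not overlap in 29.2% of the 65, against 22.2% of all genes. Their median difference was −0.02 and that of all genes 0.01 (log2).

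**Figure D2:**
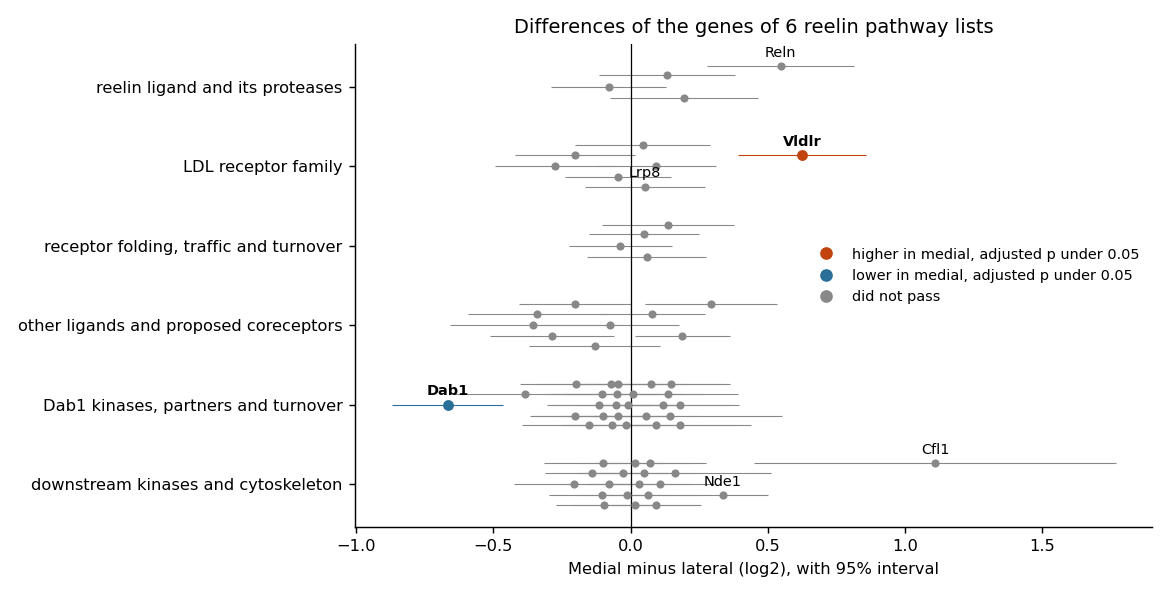
Each point is 1 measured gene of a list, placed by its medial minus lateral difference (log2, horizontal axis) with the 95% interval from limma, and lists run down the page. Vldlr at 0.62 and Dab1 at −0.67 are the coloured points that passed, and of the others only Reln and Cfl1 lie more than 0.4 from 0.

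For each of the 4 genes, the 3 genes with the most like profile were taken from 7316 others, by the root mean square difference over the 6 samples after each gene was centred on its mean. Reln was closest to Mmut, a mitochondrial mutase gene, Rbfox3, the gene of the neuronal protein NeuN, and Srr, the gene of serine racemase, at 0.038, 0.041 and 0.041 log2 units. Of these, Rbfox3 passed the threshold, with values of 10.72, 10.59 and 10.72 in medial samples, against 10.28, 10.17 and 10.02 in lateral samples. Dab1 was closest to the transcription factor genes Tshz2 and Isl1 and the proteoglycan gene Vcan, at 0.055, 0.067 and 0.088. Isl1 had 11.07, 11.08 and 11.06 in medial samples, against 11.71, 11.66 and 11.77 in lateral samples. Vldlr was closest to Scml4, Fam171b and the adhesion receptor gene Adgrb2, at 0.048, 0.052 and 0.075. Lrp8 was closest to Nckap5l, Dicer1, the gene of the microRNA-processing enzyme, and Cnrip1, at 0.0083, 0.013 and 0.018. Between the pathway genes themselves, Reln and Vldlr were the nearest pair at 0.13, and Dab1 and Vldlr the farthest at 0.65. With 6 samples in 2 groups, any genes with a difference of like size are close by this measure.

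**Figure D3:**
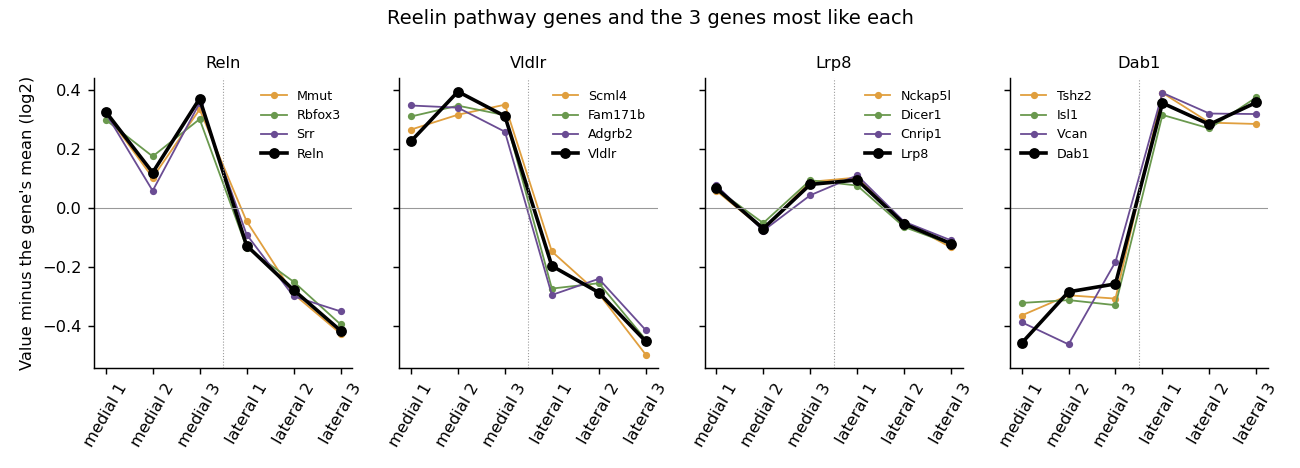
The value of each gene minus its own mean (log2, vertical axis) is drawn for the 3 medial samples and then the 3 lateral samples, with the pathway gene in black and the 3 genes most like it in colour. Lines only join the points of a gene. Reln and Vldlr profiles lie above 0 in every medial sample, Dab1 lies below 0 there, and Lrp8 stays near 0 throughout.

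Calls of the 4 genes differed in how they held across settings. Dab1 passed in 13 of 15 alternatives and Vldlr in 7 of 14, Reln in 5 of 14 and Lrp8 in 0 of 14 limma fits. The direction of Dab1, Vldlr and Reln was the same in every one of these alternatives, but most of them could not change it. Several left the difference itself as it was, and groups that do not overlap keep their direction when a sample is left out.

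**Figure D4:**
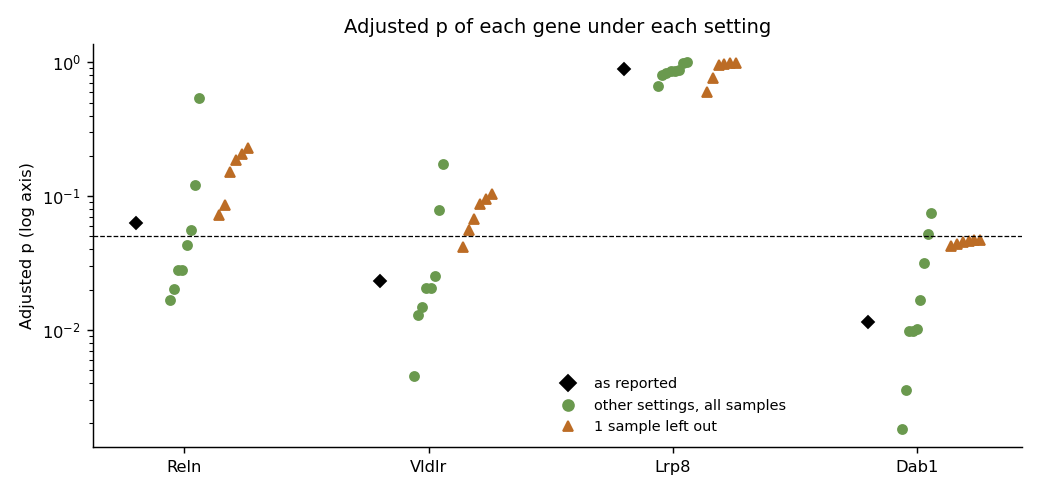
Adjusted p from limma (log axis) is plotted for each gene as reported, under the other settings that kept all samples and with 1 sample left out, and the dashed line is the threshold of 0.05. Dab1 stays just below the line with any sample left out, Vldlr lies above it in 5 of those 6 fits, and Reln lies on both sides of it when all samples are kept.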

How the data were processed

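Biotin-labelled RNA, made with a WT Terminal Labeling Kit per the labels' protocols, was hybridised to 1 array per sample. The authors deposited 1 table of processed values, taken to be log2 from their range of 2.49 to 14.1. The summarization, background correction and normalization are not given in the sources used here, so any centring is unknown. Per the submitters' processing notes, the genome build was mm9. Groups came from the sample titles. Of 23332 rows, 14996 had a single symbol in the platform's probe table, and 14941 of these took the current symbol from RefSeq (GRCm38.p6) through the Entrez identifier. The comparison used limma 3.58.1 under R 4.3.3 on all rows (lmFit, eBayes, two-sided, medial minus lateral, no block), which was tested on simulated data, with Benjamini-Hochberg adjustment over the 23332 rows. Of these, 717 passed (3.07%). Summed marker levels are the log2 of summed linear values.

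The 4 genes, the lists and the naming rule were chosen with earlier results of these data known. The rule named the 4 genes, every member of the 6 pathway lists that passed, up to 3 others of each of these lists with the smallest p, the column factors and the 3 genes most like each of the 4. Most like genes had a mean at or above the median of all genes and no predicted, clone or receptor-cluster name. The sample titles call the 3 samples of each group biological replicates. Whether they are separate litters is not stated in the labels, so p-values reflect only the spread among these samples. What part of that spread is technical is not known. The alternatives were quantile normalization, median centring, a filter on dim rows, 1 row per gene, a variance trend, array weights, a replicate block, a fold threshold of 1.2, the second Dab1 row and leaving out each sample.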

Additional observations from a re-analysis of the deposited data

How the results depend on the processing

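Over all rows, 717 passed as reported and 326 to 538 with a sample left out, and 349 passed against a fold of 1.2, a test that asks for more than any difference. Quantile normalization gave 1033. The table's replicate numbers could not be shown to pair the samples, since the deviations of equally numbered samples correlated at 0.35, 0.067 and 0.015. With the replicate block the adjusted p of Dab1 was 0.0520 (difference −0.67) and that of Vldlr 0.0790 (0.62), past the threshold in neither, that of Reln 0.121, and 0 genes of the 6 pathway lists passed, against 2 as reported. Lists passed 0 genes against a fold of 1.2 as well, where Dab1 at −0.67 and Vldlr at 0.62 had adjusted p-values of 0.0748 and 0.173. Reln passed with quantile normalization (0.50, adjusted p = 0.0203), with array medians subtracted (0.56, 0.0278), with 1 row per gene (0.55, 0.0166), with a variance trend (0.55, 0.0428) and with array weights (0.57, 0.0279). The 6 lists had 4 genes called with quantile normalization, 4 with array weights and 5 with 1 row per gene, the additions being Reln, Nde1 and, in the last, Cfl1. With a sample left out they had 1 to 2, Dab1 in all 6 fits. Leaving samples out gave differences of −0.71 to −0.60 for Dab1, 0.55 to 0.68 for Vldlr, 0.48 to 0.62 for Reln and 0.01 to 0.11 for Lrp8. Lrp8 turned sign with quantile normalization (−0.0079). The cause of these changes was not tested. The scalings moved the median difference of all rows from 0.017 to 0.0061 and 0.026. With 3 arrays a group, their number limits the precision.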
